A study of Solanum lycopersicum with 12 samples.

Results

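The 9 genes described here are tomato auxin response factors (ARFs): SlARF1 (Solyc01g103050), SlARF2A (Solyc03g118290), SlARF2B (Solyc12g042070), SlARF3 (Solyc02g077560), SlARF4 (Solyc11g069190), SlARF7A (Solyc07g016180), SlARF8A (Solyc03g031970), SlARF9A (Solyc08g082630) and SlARF10A (Solyc11g069500). They were picked by locus tag from the 34027 genes of the deposited table, with earlier results of these data known. All 9 were found, and all 9 passed the filter on low counts that left 18357 tested genes. The table gives no gene names, so the names are those attached to the tags in tomato nomenclature. RefSeq lists a gene of the corresponding name on the chromosome given in the tag for each of the 9. In RefSeq, SlARF7A is listed as ARF7 and SlARF9A as ARF9.

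ARFs are DNA-binding proteins that sit on auxin response elements in promoters. At low auxin, Aux/IAA proteins bind many of them and recruit TOPLESS corepressors. Auxin joins TIR1/AFB receptors to Aux/IAA proteins, which are then degraded, and the ARF is set free. ARFs with a glutamine-rich middle region, among them ARF7 and ARF8, act as activators, and most others act as repressors. In Arabidopsis, ARF7 takes part in the first divisions of lateral roots, where it switches on LBD transcription factor genes. Several ARF transcripts are also cut by small RNAs: ARF2, ARF3 and ARF4 by trans-acting siRNAs, ARF8 by miR167 and ARF10 by miR160.

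RNA came from pieces of the primary root of agar-grown tomato seedlings, cultivar M82, and every group, the control included, carried the auxin reporter DR5::VENUSx3-NLS. The control was a piece of the differentiation zone that held no lateral root. Stage 1 was set by DR5 signal in a pair of cells and stage 2 by the first periclinal division. Primordia of stage 3 were passing through the endodermis and those of stage 4 were halfway across the cortex. Stage 5 primordia had come up to the epidermis but not yet emerged. Each of the 6 groups had 2 libraries. The labels do not say whether duplicates came from separate plants, so p-values measure the spread between these libraries, which may be technical. Seedling age is not in the labels.

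Library totals ran from 1948150 counts (stage 5 replicate 2) to 6196286 counts (stage 1 replicate 1), so 1 count was worth between 0.161 and 0.513 CPM, a unit that scales each library to the same total. Levels are given as CPM after TMM, a factor that corrects for differences in library composition. The 9 genes together held between 315 and 1087 counts per library. Binomial and Poisson intervals cover counting error only. Each piece contained primary root tissue around the primordium, and in such bulk samples fewer cells of a type and less RNA per cell cannot be told apart. Tags listed as root genes were detected in every group, with 4 of 5 above 3 counts in at least 1 library at stages 1 and 2 and 5 of 5 in the other groups. Their summed level was 266 to 279 CPM in the control and 156 to 181 CPM at stage 5, where 3 of the 5 were called higher and 1 lower. A pair of tags listed as markers of dividing cells summed to between 24.8 and 25.7 CPM in the control and to between 113 and 117 CPM at stage 5. Tags listed as photosynthesis genes of green tissue were present throughout, and 5 or 6 of 6 were above 3 counts in each group. Their summed level was 253 to 375 CPM in the control and 70.4 to 123 CPM at stage 1. The ranges were 112 to 173 CPM (stage 2), 92.5 to 249 CPM (stage 3), 179 to 331 CPM (stage 4) and 58.3 to 211 CPM (stage 5).

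SlARF3 was high in the control and lowest at stage 1. SlARF2B was lowest and SlARF10A highest at stage 5. These 3 of 9 differed among the 6 groups (edgeR's quasi-likelihood F test, Benjamini-Hochberg adjusted p-value under 0.05). In the same test 44.4% of all tested genes were called, so the share of ARFs called, 33.3%, was not above the background. The adjusted p-values were 0.0111 for SlARF2B, 0.0143 for SlARF10A and 0.0363 for SlARF3. The other 6 genes had adjusted p-values from 0.177 (SlARF9A) to 0.606 (SlARF2A).

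**Figure D1:**
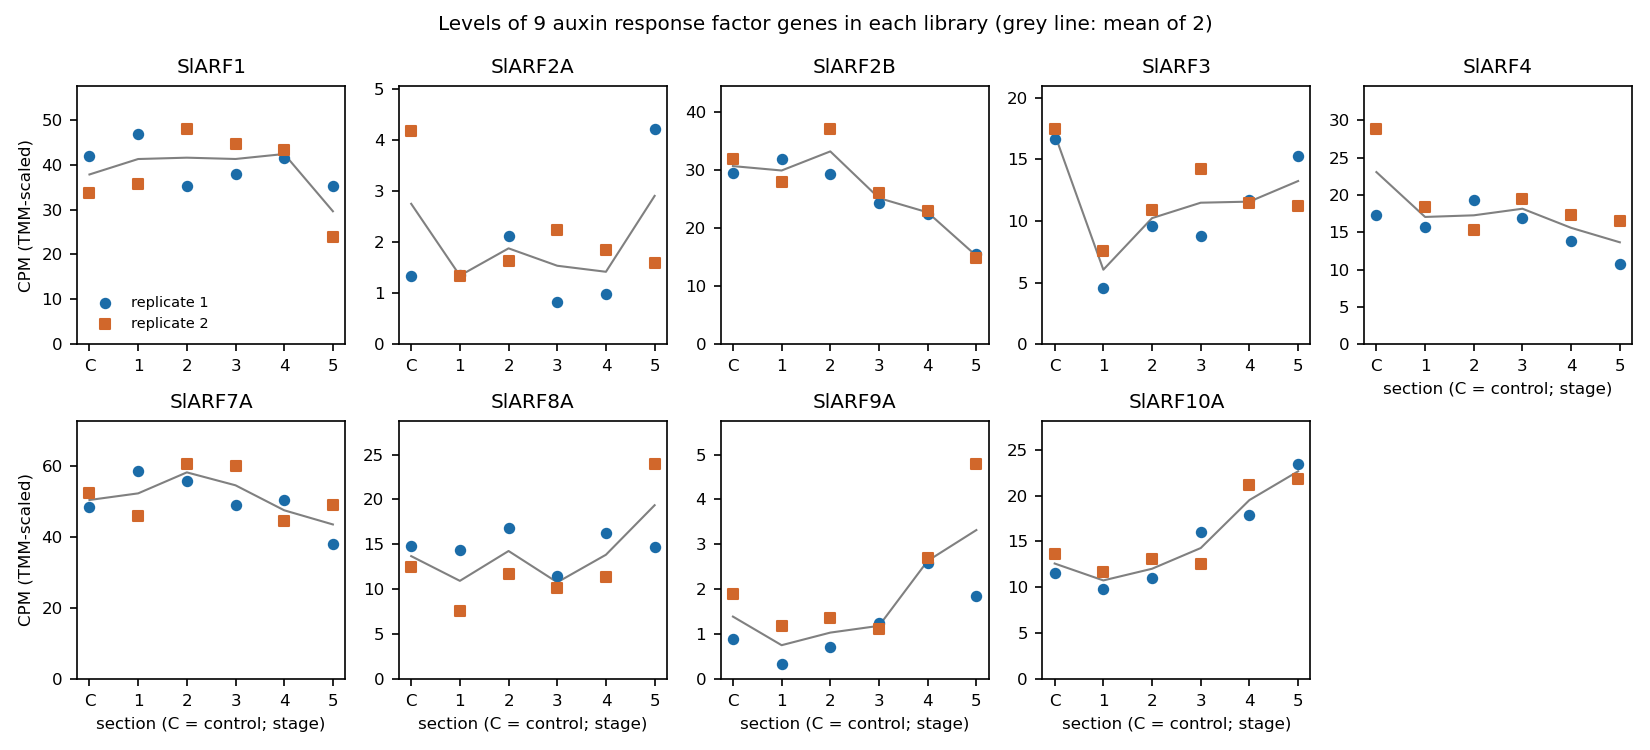
TMM-scaled CPM (vertical axes, each starting at 0) of each gene in the control section (C) and at stages 1 to 5; circles are replicate 1, squares replicate 2, and the grey line joins the means of 2 libraries. SlARF3 falls from a control mean of 17.0 CPM to 6.04 CPM at stage 1, and SlARF10A and SlARF2B end at 22.6 and 15.2 CPM.

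Neither activator was called. SlARF7A, which takes part in tomato fruit set, was not past the threshold in any comparison. Its library values ran from 37.9 to 60.5 CPM with a median of 49.7 CPM. The lowest was a stage 5 library and the highest a stage 2 library, and the control libraries lay between them at 48.3 and 52.3 CPM. Against the control its log2 change was 0.05 at stage 1 (95% interval −0.40 to 0.50) and −0.22 at stage 5 (−0.69 to 0.24). The intervals at all 5 stages lay between −0.69 and 0.66, which leaves room for changes of that size.

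SlARF8A, whose relatives are targets of miR167 and restrain fruit set before pollination, also had no call. Its library values ran from 7.53 CPM in stage 1 replicate 2 to 24.0 CPM in stage 5 replicate 2, with a median of 13.4 CPM. Its duplicates stood apart at stage 1 (14.3 and 7.53 CPM) and at stage 5 (14.8 and 24.0 CPM). The log2 change at stage 5 against the control was 0.45 ± 0.37 (95% interval −0.35 to 1.25, adjusted p-value 0.335, edgeR).

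Together the 2 activators supplied between 31.7% and 43.5% of the counts of the 9 genes. The share was 34.7% (95% binomial interval, Wilson, 31.5 to 38.0) and 33.0% (29.1 to 37.2) in the control. The stage 5 duplicates held both a low and a high value, 33.1% (29.5 to 37.0) and 43.5% (38.1 to 49.0). The share of these 2 activators among the 9 genes was therefore not ordered by stage beyond the spread of duplicates. It leaves out all other tomato ARFs, and no test of it was made. The summed level of the 9 genes ran from 157 CPM in stage 1 replicate 2 to 199 CPM in stage 2 replicate 2.

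Among the genes of the repressor class, SlARF3 had its lowest values at stage 1. ARF3, also called ETTIN in Arabidopsis, lacks the C-terminal domain through which other ARFs bind Aux/IAA proteins. The control libraries had 16.6 and 17.4 CPM, and the stage 1 libraries had 4.56 and 7.53 CPM. Stage 2 had 9.55 and 10.9 CPM, stage 3 had 8.75 and 14.2 CPM, stage 4 had 11.7 and 11.4 CPM, and stage 5 had 15.3 and 11.2 CPM. Both control libraries were above all stage libraries, and both stage 1 libraries were below all others.

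SlARF3 fell by 1.49 ± 0.32 (SE) on the log2 scale at stage 1 against the control (adjusted p-value 0.0112, edgeR). At later stages its log2 changes were −0.74 ± 0.32, −0.56 ± 0.31, −0.56 ± 0.31 and −0.33 ± 0.32 for stages 2 to 5, with adjusted p-values from 0.191 to 0.417. Stages 3 to 5 were higher than stages 1 and 2 by 0.63 ± 0.21 (adjusted p-value 0.0273). A slope over all 6 groups was 0.00 per stage (adjusted p-value 0.979), while over stages 1 to 5 alone it was 0.24 per stage (adjusted p-value 0.0216). The stage 1 call was lost without stage 1 replicate 1 (−1.17, adjusted p-value 0.111). The difference among groups was lost without any of 7 libraries: control replicate 1 (adjusted p-value 0.0689), control replicate 2 (0.0768), stage 1 replicate 1 (0.176), stage 2 replicate 1 (0.0581), stage 2 replicate 2 (0.0535), stage 4 replicate 1 (0.0586) and stage 4 replicate 2 (0.0521). The late-against-early call was lost without stage 1 replicate 1, stage 2 replicate 1 or 2, stage 3 replicate 2, stage 4 replicate 1 or stage 5 replicate 1, with values from 0.46 to 0.68 and adjusted p-values from 0.0509 to 0.13. The summed level of the listed photosynthesis genes was 253 to 375 CPM in the control, 70.4 to 123 CPM at stage 1 and 112 to 173 CPM at stage 2. It was 92.5 to 249 CPM at stage 3, 179 to 331 CPM at stage 4 and 58.3 to 211 CPM at stage 5. Solyc03g034220 alone had means of 226 CPM in the control and 75.6 CPM at stage 1. Of 5 tested tags of this list, 1 was called at stage 1, and it was lower (background 3.31% lower). The part of these genes in the SlARF3 result was not tested.

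SlARF2B was lowest at stage 5. ARF2 proteins repress growth responses in Arabidopsis, and SlARF2A and SlARF2B are both involved in tomato fruit ripening. SlARF2B had 29.5 and 31.9 CPM in the control, 31.9 and 28.0 CPM at stage 1 and 29.4 and 37.1 CPM at stage 2. It then had 24.4 and 26.0 CPM at stage 3, 22.4 and 23.0 CPM at stage 4, and 15.5 and 14.9 CPM at stage 5. The 6 libraries of stages 3 to 5 were all below the 6 of the control and stages 1 and 2.

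The fall of SlARF2B against the control was −1.002 ± 0.22 (SE) in log2 at stage 5 (0.499-fold; adjusted p-value 0.00295, edgeR). At stage 4 it was −0.43 ± 0.20 (adjusted p-value 0.124). Stages 3 to 5 were lower than stages 1 and 2 by −0.61 ± 0.13 (adjusted p-value 0.0023), and the slope was −0.18 ± 0.04 per stage (adjusted p-value 0.00414). These 3 calls were kept in every alternative that was run, each library left out in turn included. The log2 change at stage 5 then ran from −1.09 to −0.97. The listed markers of dividing cells summed to 24.8 to 25.7 CPM in the control, 59.3 to 60.6 CPM at stage 1 and 113 to 117 CPM at stage 5. SlARF2B had means of 30.7 CPM in the control and 29.9 CPM at stage 1. The listed root genes summed to 266 to 279 CPM in the control and 156 to 181 CPM at stage 5. Of these 5, 3 were called higher at stage 5 and 1 lower (background 24.4% and 21.8%). Solyc06g051550 alone had means of 244 CPM in the control and 62.5 CPM at stage 5. The part of either list in the fall of SlARF2B was not tested.

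Its close relative SlARF2A was near the detection limit, with 3 to 16 counts per library. Its levels ran from 0.833 to 4.22 CPM, and the duplicates spanned most of that range in the control (1.33 and 4.17 CPM) and at stage 5 (4.22 and 1.60 CPM). The exact 95% Poisson interval of its lowest value, 3 counts in stage 5 replicate 2, was 0.619 to 8.77 counts. No change of SlARF2A was past the threshold, and at stage 5 the 95% interval of its log2 change ran from −1.33 to 1.87. The counts thus cannot show whether SlARF2A followed SlARF2B. Both genes had a fractional count in the same library, stage 2 replicate 1, with 11.931 and 166.069 counts, each 0.069 from a whole number.

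SlARF1, another repressor of the same class, had 24.0 to 48.0 CPM, with a median of 39.7 CPM and no call in any comparison. Its lowest library was stage 5 replicate 2, the shallowest, and the other stage 5 library had 35.3 CPM. Its log2 change at stage 5 against the control was −0.33 (95% interval −0.90 to 0.23).

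SlARF4, which with ARF3 is a target of trans-acting siRNAs and in tomato influences chloroplasts and sugar in fruit, had 10.8 to 28.8 CPM. The control duplicates differed, at 17.3 and 28.8 CPM, and the stage 5 libraries had 10.8 and 16.5 CPM. The log2 change at stage 5 was −0.77 ± 0.32 and missed the threshold (adjusted p-value 0.0637, edgeR). It passed without control replicate 1 (−1.15, adjusted p-value 0.0188) and without stage 5 replicate 2 (−1.08, 0.0349). It passed as well without a filter (−0.79, 0.0495) and with 10 counts required in every library (−0.82, 0.0363). Only these 4 of 18 alternatives called it, and the weakest change among the 18 was −0.40. The stage 4 change of −0.54 missed the threshold (adjusted p-value 0.184). Of 18 alternatives 1 called it, the fit without control replicate 1 (−0.90), and its weakest value was −0.16. The slope of −0.12 per stage missed as well (adjusted p-value 0.0625). It was called in 3 of 18 alternatives, and its weakest value was −0.07. The 3 were the fits without control replicate 1 (−0.15), without stage 1 replicate 1 (−0.13) and with the replicate number as a block (−0.12, 0.0491).

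SlARF9A, which controls cell division in early tomato fruit, had 2 to 16 counts per library. It had 0.887 and 1.896 CPM in the control, 0.337 and 1.17 CPM at stage 1 and 0.707 and 1.36 CPM at stage 2. At stage 3 it had 1.25 and 1.12 CPM, at stage 4 it had 2.58 and 2.69 CPM, and at stage 5 it had 1.84 and 4.79 CPM. The stage 4 libraries, with 13 and 16 counts, held its highest counts. Its slope of 0.35 ± 0.13 log2 units per stage was past the threshold (adjusted p-value 0.0343, edgeR), while no stage differed from the control. The slope was lost without control replicate 1, stage 1 replicate 1 or 2, stage 2 replicate 1 or 2, stage 4 replicate 1 or 2, or stage 5 replicate 2. Its values without these libraries ran from 0.26 to 0.36, and its adjusted p-values from 0.051 to 0.137. Late against early, its log2 change was 1.27 ± 0.50 and missed the threshold (adjusted p-value 0.0552). It passed without stage 1 replicate 2 (1.81, 0.0415), without stage 5 replicate 1 (1.49, 0.036) and with the replicate number as a block (1.31, 0.0365).

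SlARF10A rose toward stage 5. ARF10 belongs to the ARF class that is held down by miR160, and in Arabidopsis this control is needed for a normal root cap. The control libraries had 11.5 and 13.7 CPM, stage 1 had 9.79 and 11.7 CPM, and stage 2 had 10.97 and 13.1 CPM. Stage 3 had 16.0 and 12.5 CPM, stage 4 had 17.9 and 21.2 CPM, and stage 5 had 23.4 and 21.8 CPM. The stage 4 and stage 5 libraries were above all others, and stage 3 overlapped with the control and stage 2.

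The log2 change of SlARF10A at stage 5 against the control was 0.86 ± 0.25 (SE; 1.82-fold; adjusted p-value 0.0154, edgeR). At stage 4 it was 0.64 ± 0.25 (adjusted p-value 0.0624), and it passed the threshold with 10 counts required in every library (0.65, 0.0455). Stages 3 to 5 exceeded stages 1 and 2 by 0.70 ± 0.16 (adjusted p-value 0.00329), and the slope was 0.20 ± 0.04 per stage (adjusted p-value 0.00208). The stage 5 call was lost without control replicate 1 (0.71, adjusted p-value 0.101), without stage 5 replicate 1 (0.80, 0.0815) and with only the 4 libraries compared (0.84, 0.0968). The late-against-early difference and the slope were called in every alternative. The listed markers of dividing cells summed to 24.8 to 25.7 CPM in the control, to 59.3 to 60.6 CPM at stage 1 and to 113 to 117 CPM at stage 5. SlARF10A had means of 12.6 CPM in the control, 10.8 CPM at stage 1 and 22.6 CPM at stage 5. The part of these markers in the rise of SlARF10A was not tested.

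SlARF10A and SlARF2B thus moved in opposite directions. There were 39.1 and 42.9 SlARF10A counts per 100 SlARF2B counts in the control. It stood at 30.7 and 41.9 in the libraries of stage 1, and 37.3 and 35.3 were found for stage 2. The ratio was 65.8 and 48.2 for stage 3, then 79.6 and 92.0 for stage 4, and finally 151 and 146 for stage 5. From stage 3 on, each stage lay above the one before with no overlap of duplicates. Across the 12 libraries the Pearson correlation of their log2 CPM was −0.84 (Spearman rho −0.78), the most negative among the 36 pairs of these genes. It describes libraries that share their stage and depth, and no test was made. Both genes were called from these same 12 libraries, so the ratio and the correlation are not separate support for their courses.

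**Figure D2:**
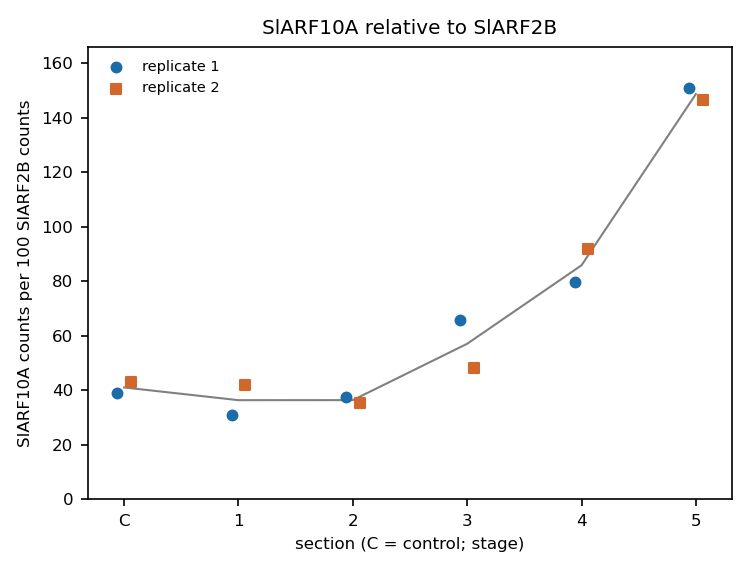
SlARF10A counts per 100 SlARF2B counts (vertical axis, starting at 0) in each library of the control section (C) and stages 1 to 5; circles are replicate 1, squares replicate 2, and the grey line joins the means of 2 libraries. The ratio is 39.1 and 42.9 in the control and reaches 151 and 146 at stage 5.

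**Figure D3:**
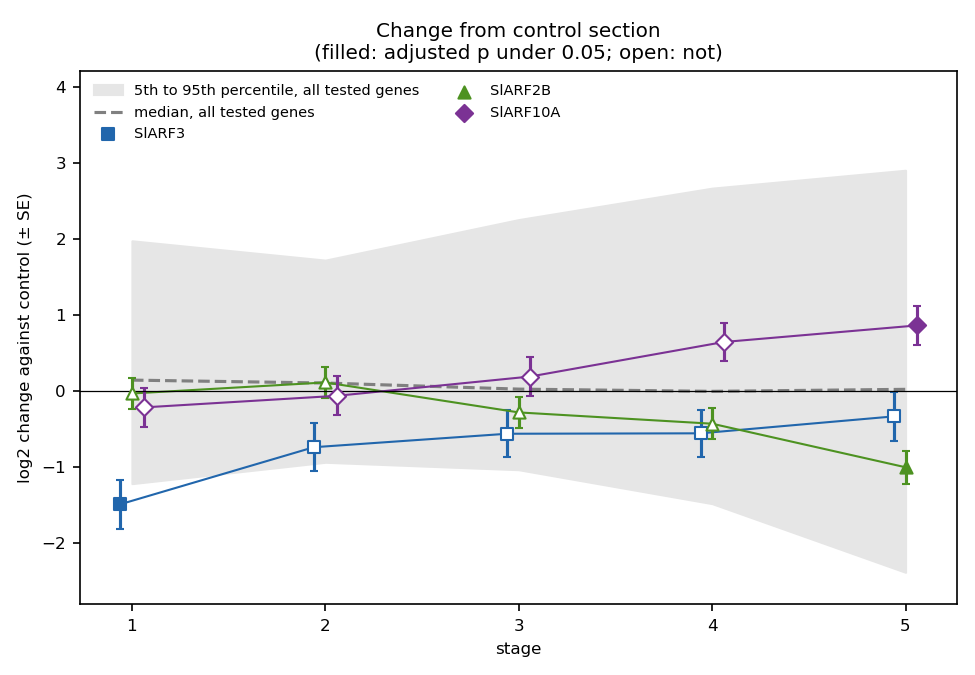
Log2 change against the control (vertical axis, with SE) at stages 1 to 5 for the 3 genes that differed among groups; filled symbols passed an adjusted p-value of 0.05 and open ones did not. The grey band spans the 5th to 95th percentile of all tested genes and the dashed line is their median; SlARF3 lies below the band at stage 1.

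Counted by stage, 1 of the 9 genes differed from the control at stage 1, and it was lower, where 13.2% of all tested genes were called (9.94% higher, 3.31% lower). No gene was called at stage 2 (background 5.99%), stage 3 (16.3%) or stage 4 (32.9%) in edgeR's test or in DESeq2. At an unadjusted p-value under 0.05 there was 1 gene at stage 2 (SlARF3), 0 at stage 3 and 1 at stage 4 (SlARF10A). At stage 5 there were 2 calls, 1 higher and 1 lower (46.2%, with 24.4% higher and 21.8% lower). The 5 comparisons share the control libraries. With 9 genes, these counts cannot show whether the ARFs differ from the background, and no such difference was tested. The median log2 change of the 9 genes was −0.33 at stage 1, against 0.14 over all tested genes, and −0.22 at stage 5, against 0.02. Relative to the median of all genes at stage 1, SlARF3 was at −1.63.

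No ARF was called between consecutive stages in edgeR's test or in DESeq2. From each stage to the next the background was 0.278% (1 to 2), 3.74% (2 to 3), 0.0872% (3 to 4) and 0% (4 to 5). At an unadjusted p-value under 0.05 there was 1 gene of 9 in the first step (SlARF3, log2 change 0.75 ± 0.33) and 1 in the last (SlARF2B, −0.57 ± 0.22). In the other steps there were 0. The crossing of the endodermis, from stage 2 to stage 3, gave log2 changes of the 9 genes between −0.42 (SlARF8A) and 0.25 (SlARF10A).

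Late stages against early ones gave 3 calls, 2 higher (SlARF3 and SlARF10A) and 1 lower (SlARF2B), where 47.1% of all tested genes were called (22.6% higher, 24.4% lower). The slope over stage number gave 3 (SlARF9A and SlARF10A higher, SlARF2B lower; background 49.3%, with 25.4% higher and 23.9% lower). Without the control group the slope was called for 4 genes, with SlARF3 at 0.24 per stage added (background 51.8% in that fit).

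**Figure D4:**
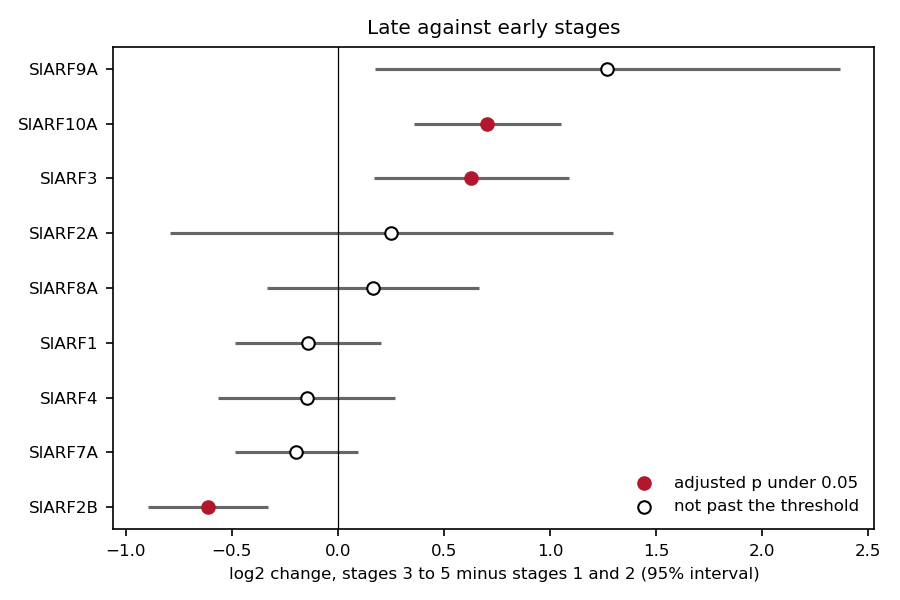
Log2 change of the mean of stages 3 to 5 over the mean of stages 1 and 2 (horizontal axis) for each gene, with 95% intervals from edgeR's fit; filled points passed the adjusted threshold. SlARF10A (0.70) and SlARF3 (0.63) lie above 0, SlARF2B (−0.61) below, and the intervals of SlARF2A and SlARF9A are the widest.

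The 3 genes whose course was most like that of SlARF10A, and the 3 most like SlARF2B, were taken by Pearson correlation of log2 CPM over the 12 libraries. For SlARF10A they were Solyc11g012550 (r = 0.98, rho = 0.99), Solyc08g080580 (r = 0.96, rho = 0.95) and Solyc03g025280 (r = 0.96, rho = 0.95). Solyc11g012550 had means of 10.5 CPM in the control, 8.90 CPM at stage 1 and 23.2 CPM at stage 5. Solyc08g080580 had 0 to 13 counts per library, so its course rests on few reads. For SlARF2B they were Solyc01g108740 (r = 0.98, rho = 0.98), Solyc02g086890 (r = 0.97, rho = 0.94) and Solyc08g068280 (r = 0.96, rho = 0.94). Solyc08g068280 had means of 17.7 CPM in the control, 19.5 CPM at stage 1, 5.96 CPM at stage 3 and 0.266 CPM at stage 5. Solyc01g108740 had 0 to 38 counts and Solyc02g086890 had 3 to 42 counts per library. Without the 2 libraries farthest from the median of the ARF, r was 0.93 to 0.98 for SlARF10A and 0.89 to 0.96 for SlARF2B. These genes were picked as the highest correlations among all tested genes, and the files pair none of them with a name.

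Other tomato ARFs were followed as 12 further tags, of which 10 passed the filter. Of these 10, 5 differed among groups, against the background of 44.4%. At stage 5 against the control, 3 were higher and 1 lower (background 24.4% and 21.8%). At stage 1 there were 0 higher and 2 lower (9.94% and 3.31%). Late against early, 4 were higher and 0 lower (22.6% and 24.4%). In either direction the shares were 40% at stage 5 (background 46.2%), 20% at stage 1 (13.2%) and 40% late against early (47.1%). Whether these shares differed from the background was not tested. The tags with the smallest p-values among groups were Solyc04g081240 and Solyc09g007810. Solyc04g081240 had 14.3 ± 6.78 CPM (SD, n = 2) in the control, 15.5 ± 1.94 CPM at stage 2, 25.1 ± 1.01 CPM at stage 3 and 32.3 ± 1.26 CPM at stage 5. Its log2 change late against early was 0.94 ± 0.18 (adjusted p-value 0.00134, edgeR). Solyc09g007810 rose from 12.2 ± 3.13 CPM in the control to 18.1 ± 3.34 CPM at stage 1 and 30.0 ± 2.59 CPM at stage 5 (1.33 ± 0.26, adjusted p-value 0.00145).

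Of the partners of ARFs, 20 tags listed as Aux/IAA repressors were tested and 13 differed among groups (background 44.4%). Calls against the control were 6 higher and 1 lower for stage 1 (background 13.2% in either direction, with 9.94% higher and 3.31% lower). For stage 2 they were 3 higher and 0 lower (5.99% in either direction). There were 5 higher and 1 lower for stage 3 (16.3%) and 6 higher and 1 lower for stage 4 (32.9%). Stage 5 had 4 higher and 2 lower (46.2%, with 24.4% higher and 21.8% lower). Their median log2 changes for stages 1 to 5 were 0.61, 0.57, 0.97, 0.62 and 0.12. Over all tested genes they were 0.14, 0.10, 0.02, −0.01 and 0.02. Stage 5 against stage 1 gave 3 higher and 6 lower (background 44.4% in either direction), with a median of −0.34. None of 4 tags listed as TIR1/AFB receptors differed among groups in edgeR's test, and 0 had an unadjusted p-value under 0.05. There was 1 that was higher at stage 5 than at stage 1, where 44.4% of all tested genes were called in either direction. Of 6 tags listed as TOPLESS corepressors, 1 differed among groups (background 44.4%). It was lower than the control at stages 4 and 5 (32.9% and 46.2% in either direction, with 21.8% lower at stage 5). Of 4 tags listed for the trans-acting siRNA pathway, which acts on ARF2, ARF3 and ARF4, 2 differed among groups (background 44.4%). Both were higher than the control at stage 5 (46.2% in either direction, with 24.4% higher). At stage 4, 1 of the 4 was higher and 2 were lower (32.9% in either direction).

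A pair of tags listed as LBD genes, a family in which ARF7 has targets in Arabidopsis, was followed as well. Both tags were higher than the control at stages 1 to 4. In either direction 13.2%, 5.99%, 16.3% and 32.9% of all tested genes were called there, with 9.94% higher at stage 1. At stage 5, 1 of the 2 tags was higher (46.2% in either direction, with 24.4% higher). In the control they had 2 and 0 counts and 1 and 1 counts, at or under the floor of 3 counts. At stage 1 they had 84 and 24 counts and 52 and 19 counts, and at stage 3 they had 68 and 77 counts and 37 and 46 counts. At stage 5 they had 16 and 2 counts and 12 and 0 counts.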

How the data were processed

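Per the labels' protocols, RNA of root pieces was made into 3′ QuantSeq libraries. Reads of such libraries lie near the poly(A) tail, and no division by gene length was made. The authors deposited estimated counts per gene, not scaled to a common total. Salmon 1.3.0 and DESeq2 are named in the submitters' processing notes, without a role. Genome build, annotation, filters and strand use are not given in the sources used here. The 12 columns were matched to samples by name.

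Estimated counts were rounded to whole counts. Of the 9 genes, 3 had a fractional value, at most 0.069 from a whole number. Genes were kept with filterByExpr (18357 of 34027), scaled by TMM and fitted with edgeR's quasi-likelihood test on all 12 libraries with group as the only term (edgeR 4.0.16, limma 3.58.1, R 4.3.3), leaving 6 residual degrees of freedom. A separate model held a slope over stage number, which is a rank and not a time. p-values were adjusted by Benjamini-Hochberg over all tested genes, and a value under 0.05 was called. SE is the size of the log2 change divided by the square root of F. Log2 CPM used a prior count of 2. The script was tested on simulated data.

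Duplicates differed beyond sampling noise (chi-square per degree of freedom 6.2 to 12.4). The genes, lists and tests were chosen with earlier results of these data known. The 9 ARFs were all described, and 1 further member of the selection is not reported here. Tags of other lists carry names from general knowledge of tomato nomenclature, since RefSeq (SLM_r2.1) does not pair them. They are given as counts. The rule for named genes also asked for values of the 2 tags of each list with the smallest F-test p-value, and these are printed for the ARF and LBD lists only. Genes of like course were sought for the ARFs with a positive (SlARF10A) and a negative slope (SlARF2B) and the smallest F-test p-value. The contrast of stage 5 with stage 1 was added after the data were seen, and no alternative was run for it. Alternatives were DESeq2 (1.42.0), DESeq2 size factors, no filter, 10 counts in every library, a replicate block, fits of only the 4 libraries compared, a slope without the control, and each library left out.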

Additional observations from a re-analysis of the deposited data

Results flagged for a closer look

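The effect against the control differed between stage 1 and stage 5 for 3 genes, by the direct contrast of stage 5 with stage 1 in edgeR's test, where 44.4% of all tested genes were called. SlARF3 was higher at stage 5 than at stage 1 by 1.15 ± 0.34 (log2, SE; adjusted p-value 0.0151). SlARF2B was lower by −0.97 ± 0.22 (adjusted p-value 0.00346), and SlARF10A was higher by 1.08 ± 0.25 (adjusted p-value 0.00411). SlARF9A, at 1.99 ± 0.77, missed the threshold (adjusted p-value 0.0539). These genes were picked because they were called at stage 1 or stage 5, and the contrast shares libraries with that choice.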

How the results depend on the processing

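The count of ARFs that differed among the 6 groups was 3, with 2 to 3 over the leave-one-out fits. With each library left out, the counts against the control were 0 to 1 at stage 1, 0 at stages 2 and 3, 0 to 1 at stage 4 and 1 to 3 at stage 5. They were 2 to 4 late against early and 2 to 3 for the slope, and 0 in each step between consecutive stages. With 10 counts in every library, which leaves 7 of the 9 genes, the stage 4 count was 1 (background 41.5%). With only the 4 libraries compared the stage 5 count was 1 (8 genes tested, background 34.9%). Without the control group 4 slopes were called (background 51.8%). DESeq2 and its size factors moved no count by more than 1.5 times. When replicate number entered as a block, 3 genes differed among groups (background 45.3%). The counts were 1, 0, 0, 0 and 2 at stages 1 to 5 (14.4%, 7.09%, 17.3%, 33.6% and 46.7%). They were 0 in each step between stages, 4 late against early (47.7%) and 4 for the slope (48.1%). SlARF9A was added late against early (log2 change 1.31, adjusted p-value 0.0365), and SlARF4 for the slope (−0.12, adjusted p-value 0.0491). The numbers are not known to pair libraries: same-numbered replicate differences had a mean correlation of 0.0485 over 15 pairs of stages (−0.0875 to 0.228), and 5 exceeded 0.1. No called change of an ARF reversed its sign under any alternative run. The contrast of stage 5 with stage 1 was fitted with the main settings only, so its calls are not covered here. Depth limits SlARF2A and SlARF9A, with at most 16 counts per library. Over all tested genes, the number called moved by more than 1.5 times in 9 comparisons, with ranges over the other settings and then over the fits without 1 library. It was 2432 at stage 1 (1430 to 3629; 845 to 2915), 1099 at stage 2 (289 to 2298; 358 to 1856), 2986 at stage 3 (2148 to 3901; 1489 to 3414), 6040 at stage 4 (4390 to 6702; 3289 to 6592) and 8490 at stage 5 (5605 to 9017; 5923 to 8248). Between consecutive stages it was 51 (12 to 527, then 6 to 71), 687 (629 to 1836, then 0 to 1183), 16 (3 to 757, then 2 to 50) and 0 (0 to 1430, then 0 to 377). Over the fits without 1 library, the lowest value for stage 3 against stage 2 came without stage 2 replicate 1. The lowest values against the control at stages 1, 3, 4 and 5 came without replicate 1 of that stage. At stage 2 the lowest came without stage 2 replicate 2. The cause was not tested.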
